A study of Mus musculus with 2 samples.

Results

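Junctions spanning at least 50000 bases were taken from the splice junction table of the mouse adrenal gland. Members were the junctions with a span of at least 50000 bases, at least 10 reads, reads in both R1 and R2 (the pair of read counts that the table gives for each junction) and a score of at most 0.1. The score is the authors' value, and a low score was read as better reproducibility. These conditions left 2533 of 378838 junctions. The members held 934729 of the 35587975 junction reads, which is 2.63%. The tissue came from 8-week-old C57BL/6J mice, and the labels give mixed-sex littermates as the source. There was 1 group, untreated as far as the labels say, with 2 libraries named as biological replicates 1 and 2 and sequenced as stranded pairs of 76-base reads from poly(A) RNA. The junction table names no replicate and its R1 and R2 are tied to no library, so junction values are pooled values without replicate error. Whether the replicates came from separate animals is not stated. Nothing was compared between conditions.

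An intron is the stretch of a transcript that the spliceosome removes between a donor site at its upstream end and an acceptor site at its downstream end. A sequencing read that crosses the joined exons shows both sites at once, and the span of the junction is then the length of the intron. Introns of this size are known mostly from large genes of cell adhesion, synapses and signalling, and often separate the first exon from the rest of the gene. Reads can also join similar sequences of neighbouring gene copies, so a long span alone does not show a long intron.

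The members were chosen by span, score and reads, which are therefore given as a description only. The table lists 113839 junctions of at least 50000 bases, of which 82.26% rested on 1 read and 3206 had 10 reads or more. The shortest member spanned 50070 bases and the longest junction just outside spanned 49979 bases. Of the members, 139 had exactly 10 reads, and 130 junctions missed only by having 9. The highest score of a member was 0.099, and the next score above the limit was 0.185.

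Fewer than 1 in 2 members had the length of an annotated intron. The junction table is in mm9 and the annotation used (GENCODE M21) is in mm10, so a member was named only where an annotated intron of exactly the same length lay on the same chromosome and strand in the same order along the chromosome. This held for 1103 members (43.5%), here called annotated-length introns. With lengths shifted by 5 to 9 bases either way, 0.0434% of members matched on average. The other 1430 members (56.5%) matched none. The name "very long introns" was therefore kept for the first set only. The annotated-length introns had a median length of 72649 bases and a median of 48 reads, and the unmatched members had a median span of 139976 bases and a median of 22 reads. The share of junctions with an annotated length fell with span. It was 81.7% between 20 and 50 kb, 61.0% between 50 and 100 kb, 34.2% between 100 and 200 kb and 8.84% above that. The table's name field carries 2 flags, A and C, which the sources used here do not explain. Of the 1059 members with A=1, 98.0% had an annotated length. Of those with A=0 and C=1, 61 had one and 579 had none (9.53%), and of those with both at 0, 4 had one and 830 had none (0.480%).

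**Figure D1:**
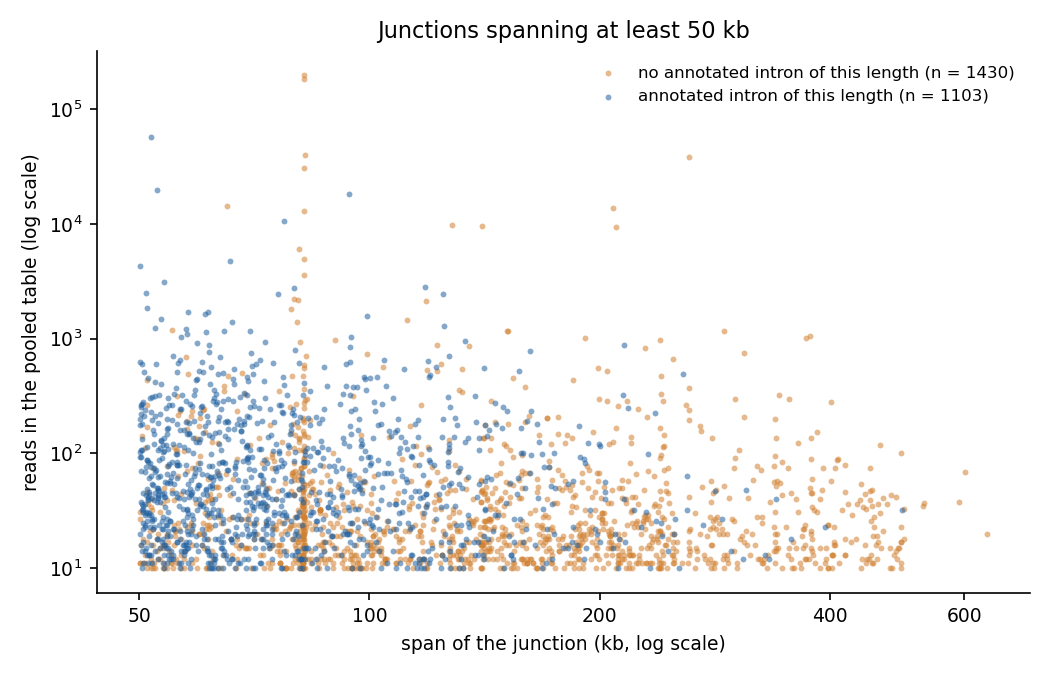
Span in kb against reads in the pooled table, both on log scales, for 1103 members with an annotated intron of the same length and 1430 without. The unmatched points reach the longest spans and the most reads, and those stacked near 82 kb include the junctions between Cyp21a1 and Cyp21a2-ps.

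The exon ends that these junctions join are shown for some of the most-read and the longest annotated-length introns that interrupt a coding region, to let a reader see what a read across each one looks like. Each run gives 15 bases of the upstream exon in lower case and 15 bases of the downstream exon in capitals, 5′ to 3′ on the strand of the gene, from GENCODE M21 transcripts. The intron itself, given in mm10, lies between the lower case and the capitals.
Igfbp7, chr5:77355672-77407539, minus strand: gcacctgcgagcaagGTCCTTCCATAGTGA
App, chr16:85120698-85173501, minus strand: gttcgggctctggagGTACCCACTGATGGC
Kcnd2, chr6:21217414-21714134, plus strand: catgacaacactgggGTATGGCGACATGGT
Ank2, chr3:127104863-127498667, minus strand: ccgcggatccgtcagTCTGACAGCAATGCC
Lsamp, chr16:41533532-41888914, plus strand: cacggccatcctcagGTGTGTGGTAGAAGA
In each of these 5 the upstream exon ends in G. Among all 1103 annotated-length introns the upstream exon ended in G in 84.6% and in AG in 56.2%, and the downstream exon began with G in 47.1%. Among annotated-length junctions under 50 kb the same shares were 82.4%, 54.8% and 50.3%. Motifs inside the introns were not analysed here.

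Among the annotated-length introns, reads were concentrated in a few genes. Host level and reads did not always go together, as Ccnd3 had 83 reads over its member at 1361 ± 37.1 TPM (SD, n = 2). Igfbp7, a secreted binding protein of insulin-like growth factors, had 57023 reads over its first intron of 51868 bases, 30846 in R1 and 26177 in R2. Igfbp7 stood at 9697 and 5510 TPM in replicates 1 and 2. TPM, is the authors' level per transcript length. By it Igfbp7 was the highest of all host genes in both libraries. The first intron of App, the amyloid precursor protein, spanned 52804 bases and had 19618 reads at a host level of 174 ± 12.5 TPM (SD, n = 2). In Mbnl1, a regulator of alternative splicing, a first intron of 94170 bases in the 5′ UTR had 18377 reads at 212 ± 52.5 TPM (SD, n = 2). Smoc1, a secreted calcium-binding matrix protein, had 10644 reads over 77448 bases at 267 ± 50.5 TPM (SD, n = 2).

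Reads were fewer over the introns that followed. Raly, an RNA-binding protein, had 4793 reads over 65720 bases. Plpp1, a lipid phosphate phosphatase, had 4297 reads over 50136 bases, and the kinase gene Eif2ak1 had 3099 over 53854 bases. Pam, the enzyme that amidates peptide hormones, had 2805 reads over an intron of 118225 bases at 635 ± 134 TPM (SD, n = 2). Gramd1b, a carrier of cholesterol between membranes, had 2779 reads over 79641 bases, with 385 and 654 TPM in replicates 1 and 2. The 12 with the most reads ended with the TGF-beta co-receptor Tgfbr3 (2510 reads), Parm1 (2464 reads) and the growth hormone receptor Ghr (2452 reads). Of these 12 introns, all but those of Gramd1b and Tgfbr3 were the first intron of the leading transcript.

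The longest introns were carried by few reads. The first intron of Kcnd2, a voltage-gated potassium channel subunit, spanned 496721 bases in 32 reads, 8 in R1 and 24 in R2, and Kcnd2 stood at 0.52 and 0.98 TPM. Ank2, an adaptor between membrane proteins and the cytoskeleton, had 23 reads over 393805 bases. Lsamp, an adhesion protein of the immunoglobulin family, had 18 reads over 355383 bases at 0.72 and 0.78 TPM. Sdk1, another adhesion protein, had 40 reads over 340200 bases, and Dpp6, an auxiliary subunit of potassium channels, had 12 over 332941 bases. Lrp1b, a large lipoprotein receptor relative, showed 13 reads over 329018 bases at only 0.15 and 0.36 TPM. Smyd3 had 48 reads over 310880 bases, Fhit 12 over 308111, Negr1 14 over 297084, Hs6st2 27 over 289528 and Cmss1 47 over 283122 bases. Slit3, a guidance ligand of Robo receptors, had 24 reads over 273314 bases at 27.6 and 27.3 TPM. Among these 12, the first-intron position held for all but Smyd3, Fhit, Hs6st2 and Slit3. Among all 12 longest members, by contrast, Kcnd2 was the only one with an annotated length, and the longest, of 642837 bases on chromosome 4, had 20 reads and both ends at splice sites of Gm13306. This junction is uncertain: junctions of 2869 bases at both its ends had the same 20 reads, and their exon ends were identical over 30 bases. Both ends were named Gm13306, and whether these exon ends were read from the same annotated intron was not tested.

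More than 1 in 2 annotated-length introns were first introns. In the transcript with the highest TPM that holds the intron, 579 of 1103 (52.5%) were the first, against 14.3% of annotated-length junctions under 50 kb. The share rose with length below the limit and not beyond it. It was 13.0% between 1 and 5 kb, 27.2% between 5 and 10 kb, 39.7% between 10 and 20 kb and 51.4% between 20 and 50 kb, then 51.2% between 50 and 100 kb, 56.9% between 100 and 200 kb and 52.4% above 200 kb (22 of 42 introns). With an intron counted as first where any annotated transcript begins with it, the share was 58.7%. The introns lay between coding exons in 747 cases, in the 5′ UTR in 245 (22.2%), in noncoding transcripts in 105 and in the 3′ UTR in 6. In the 5′ UTR lay 5.65% of the annotated-length junctions under 50 kb and 22.6% of those between 20 and 50 kb.

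**Figure D2:**
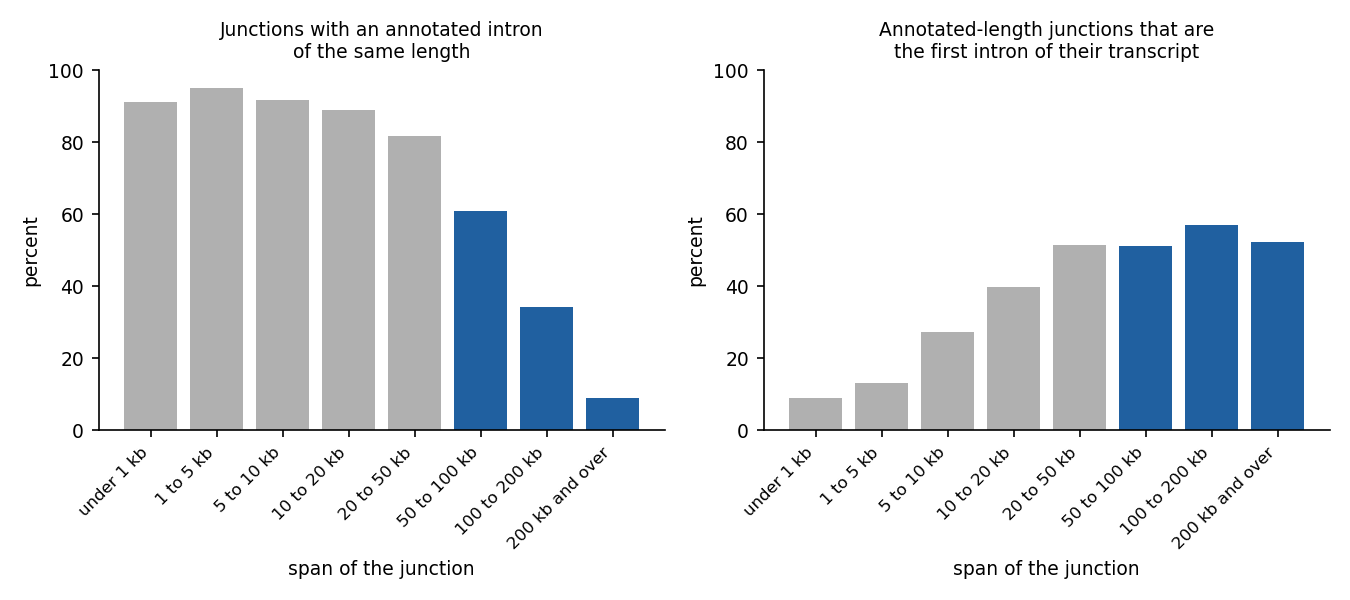
Percent of junctions with an annotated intron of the same length (left) and percent of annotated-length junctions that are the first intron of their transcript (right), by span. Grey bars are spans under 50 kb and blue bars are members: the left share falls to 8.84% and the right share stays between 51.2% and 56.9% among members.

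Reads over long introns were compared with reads over the next introns of the same transcript, as the ratio to the mean of the adjacent annotated introns. An adjacent intron counted only where its junction also passed the limits on reads and score, so less-read neighbours were left out. A first intron has 1 neighbour and a later one up to 2. The ratios therefore describe these selected introns only. The ratio could be had for 787 annotated-length members and its median was 0.933. First introns had a median of 1.57 and later introns 0.750 (n = 448). For junctions under 50 kb the medians were 1.23 and 0.849. Junctions of 20 to 50 kb, just below the limit, gave 1.93 for first introns, above the members, and 0.739 for later introns.

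Most of these introns held nearly all reads at their own splice sites. The share of a junction is its reads over all reads of junctions that use the same donor or the same acceptor. In 717 of 1103 annotated-length introns (65.0%), the intron took at least 90% of the reads at both sites, against 86.2% under 50 kb and 70.5% between 20 and 50 kb. No other junction used the donor in 641 cases (58.1%), against 75.2% under 50 kb and 59.7% between 20 and 50 kb. Junctions with 1 read or a high score also count in the denominator. With only junctions of a score of at most 0.1 in it, 75.1% took at least 90% at both sites.

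The 8 lowest shares belonged mostly to members that met a more-used junction at their acceptor. In Raly, an intron of 66037 bases had 12 of the 5038 reads at its acceptor, a share of 0.238% (95% Clopper-Pearson interval 0.123% to 0.416%). The intron of 65720 bases to the same acceptor took 95.1% of them (94.5% to 95.7%). In Ghr, an intron of 124249 bases took 0.683% (0.398% to 1.09%) of the acceptor's 2490 reads, and the intron of 124991 bases took 98.5%. Both introns of Ghr had more reads in R1 than in R2, at 16 against 1 and at 1646 against 806. Ghr itself stood at 33.7 and 17.9 TPM in replicates 1 and 2, but R1 and R2 cannot be tied to these libraries.

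The gamma-protocadherins, whose variable first exons are each spliced to the same constant exons, held 5 of these 8. Pcdhga4, Pcdhga6, Pcdhga11, Pcdhgb2 and Pcdhgb6 each had 1 member, with 10 to 20 reads and spans from 66653 to 137203 bases. All 5 ended at 1 acceptor that had 2560 reads in total, and took 0.391% to 0.781% of it, with no other junction at their donors. Their host levels ran from 0.96 ± 0.20 TPM for Pcdhga11 to 12.9 ± 0.69 TPM for Pcdhga4 (SD, n = 2). These 5 genes share exons, so reads from the constant exons cannot be told apart between them. In all, 53 acceptors were used by 2 or more annotated-length members (111 members), and 19 donors by 2 each (38 members). Iqsec1, an exchange factor for ARF GTPases, had 3 members at 1 acceptor, with 136, 113 and 28 reads. Rbfox2, a splicing regulator, also had 3, with 57, 36 and 10 reads.

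A separate group of members differed by 3 bases. Among all members, 54 pairs shared a donor and had acceptors at most 20 bases apart. Of the 12 such pairs with at least 1 annotated-length member, 10 had acceptors exactly 3 bases apart. Both junctions were annotated in 5 of these 10 pairs. Their exon ends are shown because they hold the difference, with 15 bases upstream in lower case and 15 bases downstream in capitals as before.
Ahcyl2, chr6:29768907-29863142, plus strand, 846 reads: cgcacggtcaagaagATTCAGTTTGCTGAC
Ahcyl2, chr6:29768907-29863139, plus strand, 175 reads: cgcacggtcaagaagCAGATTCAGTTTGCT
Cobll1, chr2:65151168-65238362, minus strand, 562 reads: cgcgggctccgcaggCAGGAAAACAAAAGG
Cobll1, chr2:65151165-65238362, minus strand, 246 reads: cgcgggctccgcaggGAAAACAAAAGGGAA
Pde8b, chr13:95123324-95250133, minus strand, 103 reads: cagagcgtgcgccagCAGGTGTCTTCTGCA
Pde8b, chr13:95123321-95250133, minus strand, 77 reads: cagagcgtgcgccagGTGTCTTCTGCAGAG
In all 5 pairs, which also include Sbf2 and Apbb2, the transcript with the shorter intron carried an added CAG at the start of the downstream exon and matched the other one in the remaining bases. By pooled reads, the 2 forms were used unequally. The less-read acceptor had 17.1% of the pair's reads in Ahcyl2, a relative of adenosylhomocysteinase, and 30.4% in Cobll1. It had 12.9% in Sbf2, 33.3% in Apbb2 (26 and 13 reads) and 42.8% in Pde8b. In Apbb2 the order differed between the counts, with 8 and 12 reads in R1 and 18 and 1 in R2. Pde8b, a cyclic AMP phosphodiesterase of steroid-producing cells, had a second such pair, from a donor further downstream. It ends at the same acceptors. There the annotated form of 99151 bases had 1588 reads and the form of 99154 bases, with A=1 and no annotated length, had 742 reads (31.8%). In Prickle1, Gramd1b and Nmnat3 the less-read form was likewise without an annotated length, and in Ctif the more-read one. The pairs were chosen after their values were seen.

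The annotated-length introns lay in 808 genes. Of these, 800 were protein-coding, and 807 were in the gene tables. A single member was found in 606 hosts, 2 in 135 and 3 or more in 66. The median level of hosts was 10.4 TPM (9.56 and 10.9 in replicates 1 and 2), and 75 of them missed 1 TPM in at least 1 library. Detected genes, with both libraries reaching 1 TPM, numbered 12445 and had a median of 14.98 TPM. The detected genes with a long annotated intron and a member had a median of 12.57 TPM, and those with such an intron and no member 5.18 TPM. At least 100 TPM was reached by 45 hosts. Cyclin Ccnd3 stood at 1361 ± 37.1 TPM (SD, n = 2) with 83 reads over its member. Of the 1310 detected genes with an annotated intron of at least 50000 bases, 732 held a member, 55.9%. That share ran from 37.0% at 1 to 3 TPM to 71.4% at 30 to 100 TPM and 71.4% above 100 TPM. Tsc22d1, at 676 ± 22.2 TPM (SD, n = 2), was the highest of those with none. The median reads of a member were 18.5 in hosts under 1 TPM, 36 at 1 to 10 TPM, 75 at 10 to 100 TPM and 177 above.

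Several very large genes were spanned intron by intron. Dlgap1, a scaffold of synapses, and Cdh13, a cadherin without a cytoplasmic part, had 6 members each. Cpq, a carboxypeptidase, and Lpp, an adaptor at focal adhesions, had 5 each. In Cdh13, at 9.28 and 8.69 TPM, introns 1, 2, 3, 5, 6 and 7 had 32, 76, 15, 12, 111 and 39 reads, and each was the only junction at its donor and its acceptor. Reads thus differed several-fold between introns of 1 gene. In Dlgap1, at 59.9 and 75.0 TPM, reads of the members ran from 26 to 459. The members with 26 and 459 reads shared a donor and differed in the acceptor. The lowest of the other members of Dlgap1 had 30 reads. Reads ran from 53 to 206 in Cpq and from 43 to 130 in Lpp.

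**Figure D3:**
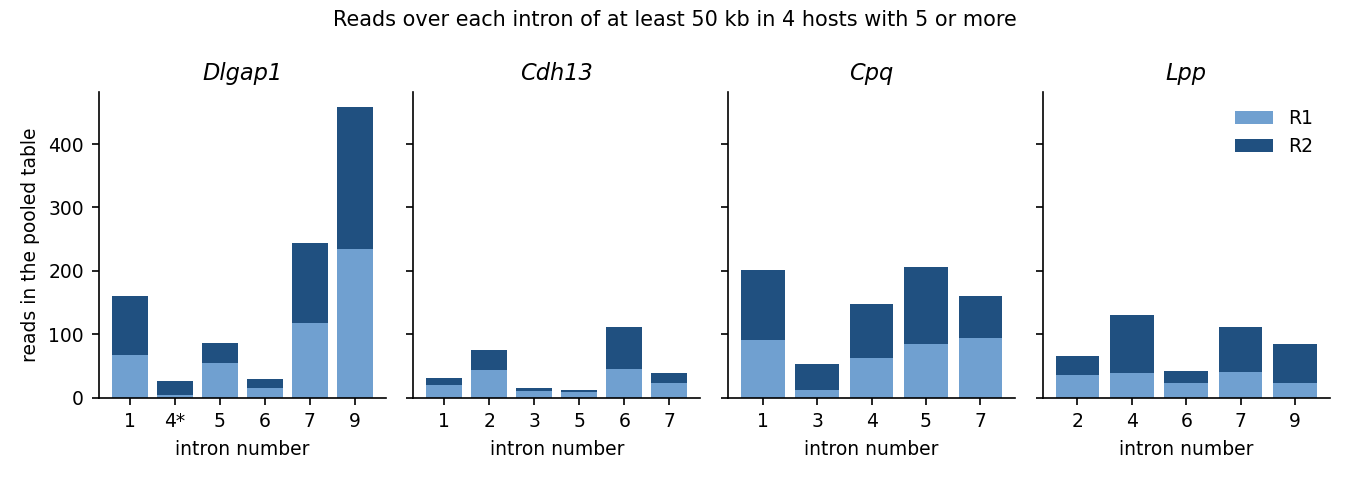
Reads in the pooled table over each annotated-length member of 4 genes with 5 or more, by intron number in the leading transcript, with R1 and R2 stacked. The starred intron of Dlgap1 is numbered in another transcript with 9 introns and shares its donor with the intron numbered 9. Reads differ between introns of 1 gene, from 12 to 111 in Cdh13 and from 53 to 206 in Cpq.

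The 8 gene lists held 231 genes, of which 123 were hosts with 224 members. Large genes were chosen for the lists, so their counts are read beside the 55.9% above. The lists were also chosen with earlier results of these data known, and the 55.9% takes no account of host level. Shares above it are therefore not read as a result about the lists. Of the listed transcription factors that were detected and have such an intron, 23 of 36 (63.9%) held a member. Foxp1 had 397 reads over 4 members at 44.0 ± 0.21 TPM and Zfhx3 had 212 over 4 members at 13.2 ± 0.18 TPM (SD, n = 2). For adhesion proteins and synapse organisers it was 12 of 16 (75.0%), led by Cadm1 with 492 reads over a single intron of 257465 bases at 6.84 ± 0.45 TPM (SD, n = 2). Cyclic nucleotide and kinase signalling had 13 of 20 (65.0%). Pde8b led it with 1768 reads over 3 members at 169 ± 6.15 TPM (SD, n = 2), before the kinase Mast4 with 1045 reads.

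Regulators of GTPases and the cytoskeleton held members in 20 of 29 genes (69.0%). Dock1 had 1628 reads and its partner Elmo1 had 1179 reads, each over 3 members, at 21.01 ± 5.66 and 20.2 ± 1.64 TPM (SD, n = 2). Matrix, guidance and receptor genes had 16 of 25 (64.0%), with Ghr (2712 reads), Tgfbr3 (2510 reads) and the guidance receptor Robo1 (394 reads) in front. Channels and transporters had 7 of 10 (70%), with Cacna2d1 at 393 reads and Cacna1c at 179. RNA-binding, ubiquitin and chromatin genes had 15 of 19 (78.9%), with Mbnl1 at 18632 reads and the chromatin remodelling subunit Arid1b at 1170. Metabolic genes had 8 of 10 (80.0%), with Fto at 195 reads. The differences between lists were not tested.

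Introns were only thinly covered by contigs, the transcribed blocks of the authors' contig table. A median of 4.03% of an annotated-length member was covered on its own strand and 0.0105% on the other strand. Coverage fell with length, from 17.9% between 1 and 5 kb to 4.90% between 20 and 50 kb, 4.31% between 50 and 100 kb and 1.29% above 200 kb. With contigs of a score of at most 0.1, the median of members was 1.76%. Among the most-read introns coverage ranged from 0.58% in Eif2ak1 to 66.1% in Gramd1b, and Cdh13 had at most 0.71%. Whether a covered stretch belongs to the host or to another transcript was not tested.

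Few hosts differed between the libraries. After TMM scaling, 20 of 807 hosts (2.48%) differed at least 2-fold, against 1208 of 15824 genes called over the whole table, 7.63%. Of the 20, 16 were higher in replicate 1 (4.78% of all genes were called in that direction) and 4 in replicate 2 (2.86% of all genes). Spike-in scaling moved the median of all genes by -0.43 on the log2 scale and turned this split to 5 hosts higher in replicate 1 and 68 in replicate 2. In all, 73 hosts (9.05%) were then past 2-fold, against 10.7% of all genes. Of all genes, 2.03% were then called higher in replicate 1 and 8.63% in replicate 2, so hosts and all genes turned the same way. By TPM, 32 hosts (3.97%) were past 2-fold, against 6.93% of all genes. Hosts entered through junctions with at least 10 reads, reads in both R1 and R2 and a low score, read here as better reproducibility. All genes needed only a summed count of at least 20. The shares thus come from unlike selection, and a lower share among hosts is not read as a result about them. With 1 library on each side there is no replicate check of these differences. Pde3b, a phosphodiesterase of fat and other tissues, was at 31.8 and 9.31 TPM in replicates 1 and 2, a log2 difference of scaled counts of 1.83 (95% interval 1.76 to 1.90, counting error only). Cdh22 was at 6.15 and 1.51 TPM. Elfn1 went the other way, at 29.6 and 81.4 TPM, with a log2 difference of -1.41 (-1.46 to -1.35). These 3 kept their direction past 2-fold under spike-in scaling. The levels of Ece1, endothelin-converting enzyme, lay farther apart in TPM (50.2 and 411) than in scaled counts, where the log2 difference was -0.83 and below 2-fold. It is the grey point far under the line in the plot of host levels. The 3 fat markers Adipoq, Cfd and Ucp1 were all higher in replicate 1 in TPM, from 240 against 137 for Adipoq to 9884 against 3984 for Cfd. All 6 cortex markers were higher in replicate 2 in TPM, among them Star at 1839 against 2820 and Nr5a1 at 840 against 1423. The part of tissue makeup in the host levels was not tested, and fewer cells of a type cannot be told apart from less RNA per cell in whole tissue.

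**Figure D4:**
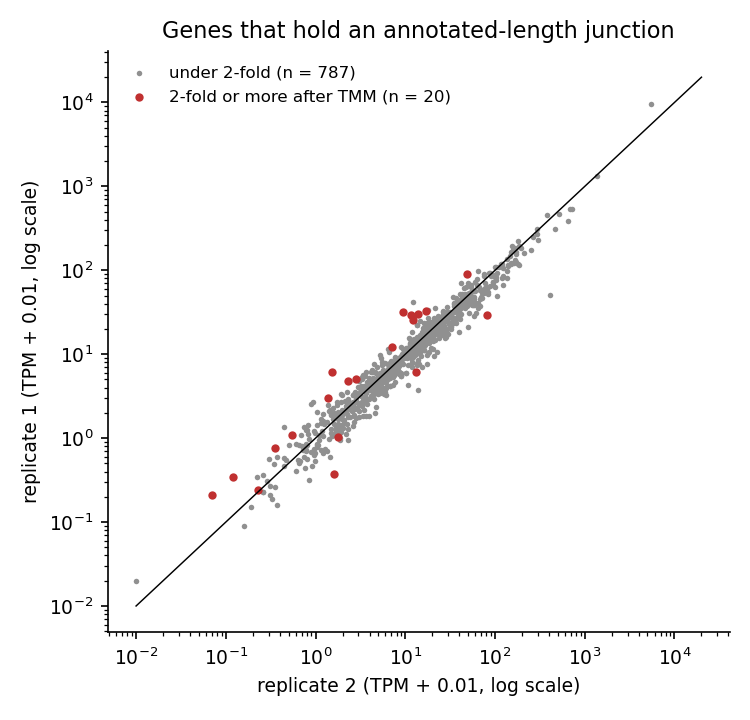
Level of each of the 807 host genes in replicate 2 (x axis) and replicate 1 (y axis), in TPM plus 0.01 on log scales, with the line of equal levels. Red points are the 20 hosts that differ at least 2-fold in TMM-scaled counts, and the other 787 are grey.

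The 1430 unmatched members held 668752 reads, 71.5% of all member reads. Some had equal counts, such as members on chromosome 14 from 1 donor in Anxa11 with 38 reads each, 14 in R1 and 24 in R2. Whether a read was counted at more than 1 junction was not tested, so sums of reads may hold a read more than once. The unmatched members were of several kinds. In 122 of them, with 510370 reads the ends were splice sites of different genes. In 33 both ends were sites of 1 named gene, in 308 only 1 end was at a site of a named gene, and in 967 neither was. A site was named only where an annotated-length junction with A=1 or an annotated-length member used it. A site without a name may thus still be annotated. Chromosome 17 held 312 of them (21.8%) and 77.9% of their reads. Where an annotated-length intron had a median of 0 passing junctions nested within it, an unmatched member had a median of 8.

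The junctions from Cyp21a1 to Cyp21a2-ps alone held 50.7% of all member reads. Cyp21a1 encodes the steroid 21-hydroxylase of the adrenal cortex and Cyp21a2-ps is its pseudogene copy on chromosome 17. There were 12 such junctions of 82020 to 82870 bases with 473680 reads, all with a donor at a site of Cyp21a1 and an acceptor at a site of Cyp21a2-ps. The most-read one (mm9 chromosome 17, 34858273 to 34940292, minus strand) had 196794 reads, 67180 in R1 and 129614 in R2. It took 42.4% (95% interval 42.2% to 42.5%) of the reads at its donor and 92.6% (92.5% to 92.7%) at its acceptor. The junction of 86 bases from the same donor within Cyp21a1 had 266131 reads, and the junction of 86 bases to the same acceptor within Cyp21a2-ps had 15594. The next in reads (34858455 to 34940493) had 183421 reads and took 47.5% of its donor and 65.9% of its acceptor. It too had short junctions of 1 length at both ends, of 107 bases, but these had only 31 and 2 reads. The gene tables gave Cyp21a1 14483 and 19341 TPM and Cyp21a2-ps 790 and 908 TPM. Without these 12 junctions, annotated-length introns held 57.7% of member reads in place of 28.5%.

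The exon ends of both copies are shown because the reads must be assigned between them. Each run again has 15 bases upstream in lower case and 15 downstream in capitals, here for the short intron of 86 bases and for that of 88 bases in each gene, from GENCODE M21 transcripts.
Cyp21a1, intron of 86 bases: acttttggagacaagGACAGCACGTTGGTA
Cyp21a2-ps, intron of 86 bases: acttttggagacaagGACAGCACGTTGGTA
Cyp21a1, intron of 88 bases: attccccttctcaggTTCCTCCCCAACCCA
Cyp21a2-ps, intron of 88 bases: attccccttctcaggTTCTTCCCCAACCCA
The first pair was identical over all 30 bases and the second differed at 1 base. The long junction over the 86-base sites is the most-read one above, and that over the 88-base sites had 3591 reads. Long junctions between near-identical copies are uncertain: where the ends are identical, these 30 bases fit the short intron of either gene and the long junction equally. How the authors assigned such reads was not tested.

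**Figure D5:**
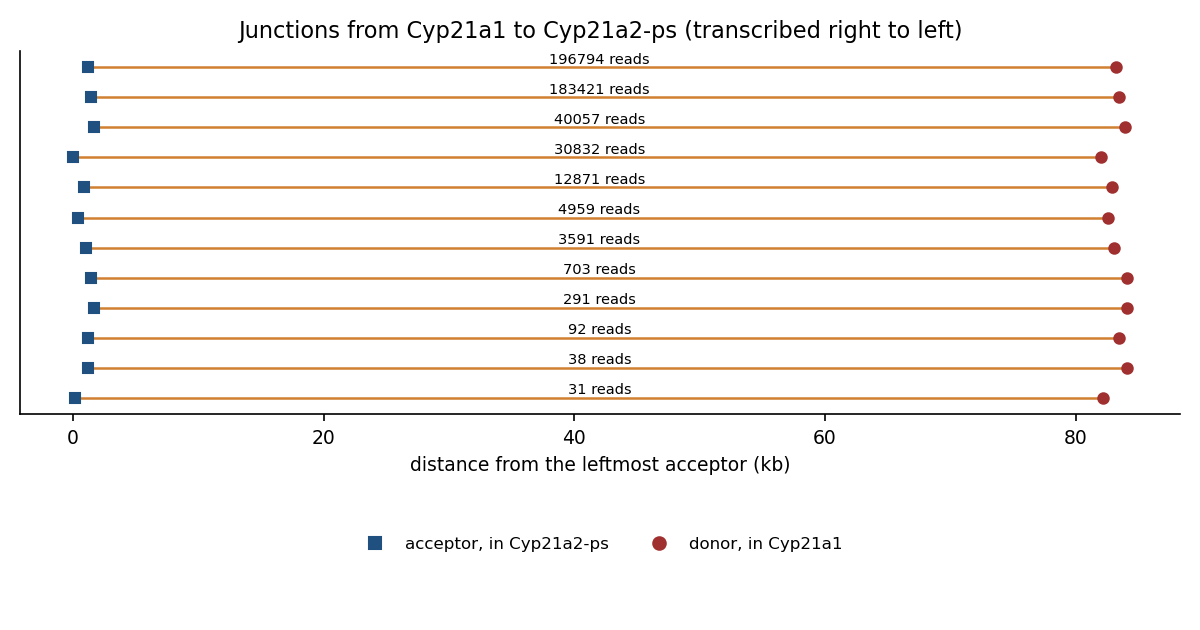
The 12 junctions from Cyp21a1 (donor, circle) to Cyp21a2-ps (acceptor, square), drawn to scale by distance in kb from the leftmost acceptor and ordered by reads in the pooled table. Reads run from 31 to 196794 and every span lies between 82020 and 82870 bases.

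Equal short introns at both ends were a wider feature of the unmatched members. In 123 of them, with 444580 reads, a short junction at the donor had exactly the same length as a short junction at the acceptor. This occurred in 0 of the annotated-length introns. Only 115 of the 1103 annotated-length introns had any junction under 50 kb at both ends, against 380 of the 1430 unmatched members. The equal short junctions of the 123 had a median length of 208 bases and ranged from 45 to 21894 bases. In 107 of the 123, both short junctions had at least 10 reads. Among the rest was the Cyp21a1 junction of 183421 reads, whose short junctions had 31 and 2 reads. Another was the Cyp21a1 junction of 12871 reads, with 1 read at its donor and 218 at its acceptor. A large part of the 444580 reads thus belongs to members with a little-read short junction. In 66 of the 123, the long junction had exactly the same R1 and R2 reads as 1 of its short junctions, and in 44 the same as both. C1ra and C1rb, complement proteases, gave an example with 693 reads for the long junction and 693 for each of the short ones. Exon ends of both copies could be read for 50 of the 123. They were identical over 30 bases in 41, differed at 1 base in 5 and at 2 or 3 bases in 4. The 41 include the junction of Gm13306. Where the ends did not name different genes, whether both sequences came from the same annotated intron was not tested.

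Other pairs were named the same way. C4a and C4b, complement genes next to the Cyp21 copies, were joined by 20 junctions with 10313 reads, and their own levels were 119 ± 27.3 and 49.7 ± 1.91 TPM (SD, n = 2). A single junction of 65235 bases from Scd3 to Scd2, desaturases of fatty acids, had 14323 reads, 6016 in R1 and 8307 in R2. It took 99.9% of the reads at its donor in Scd3, a gene at 0.1 and 0.01 TPM, and 47.7% at its acceptor in Scd2, at 233 and 380 TPM. Abcb1a and Abcb1b, drug efflux pumps, had 6 junctions with 2158 reads at levels of 2.14 ± 0.13 and 86.1 ± 0.88 TPM (SD, n = 2). C1ra and C1rb had 7 with 1850 reads. Selenbp2 and Selenbp1 had 6 with 1496 reads at 0.94 ± 0.87 and 114 ± 16.1 TPM (SD, n = 2). Further pairs were Stk19 with its pseudogene, Tnxa with Tnxb, and H2-D1 with H2-Q genes.

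A different kind of unmatched member shared its ends with few or no other junctions. The junction on mm9 chromosome 4 from 121870932 to 122132563, minus strand, had 38303 reads, 17535 in R1 and 20768 in R2, and was the only one at exactly its donor and acceptor. It spans 261632 bases with A and C both at 0, and only 0.0459% of it was covered by contigs. Other members had ends close to its own, among them the junction from 121870916 to 122132560 with 372 reads and that from 121870933 to 122132564 with 42. The annotated-length junctions nearest to the most-read one on either side, sought on both strands, were in Rlf and Ppt1, at 983493 and 381060 bases. A similar junction on chromosome 6 (30479971 to 30688254, minus strand) had 13773 reads. Beyond its right end, its donor, the nearest annotated-length junction on either strand was in Mest, 82 bases away. Annotated-length junctions of 2 genes lay inside its span. On chromosome 7 (130363558 to 130503843, plus strand) another had 9495 reads, 98.5% of those at its donor and 100% of those at its acceptor. The files used here tie none of these to a transcript, and what they join was not tested.

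Splicing without an annotated length within a single gene was rarer. The 33 members with both ends at sites of 1 gene lay in 30 genes and had a median of 26 reads. They include the uncertain junction of Gm13306 described above. After Pde8b, the most-read was in Ski, a repressor of SMAD signalling, with 243 reads over 60856 bases and 32.0% of its donor. Gatad2a followed with 174 reads and 7.48% of its donor, then Lrrc20 with 169 reads and 70.4%. Gse1 had a junction of 208446 bases with 127 reads and 50.8% of its donor. In 19 of the 33 the junction took under 10% of the reads at 1 of its sites. These genes were named after their values were seen.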

How the data were processed

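Poly(A) RNA of 2 adrenal gland libraries of 1 group was analysed. The members and gene lists were chosen with earlier results of these data known. The deposited junction table (mm9) gives read counts per junction, a text field with R1 and R2, which sum to that count in every row, and the authors' score. Its other deposited field entries, A and C, are unexplained. The deposited contig table (mm9) gives a signal, which was not used as a level, and the authors' score, for which low was taken as better. Per the file headers, the gene tables (mm10, annotation M4) give expected counts, TPM and FPKM for each library, and the authors' transcript tables give TPM. For the aligner, junction caller and quantifier, the sources used here give no name. No column of per-sample values was left unmapped (0).

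Spans were end minus start in the table. Introns were matched to GENCODE M21 by chromosome, strand, exact length and order between anchors of at least 5000 bases. The second round of anchors was chosen after the data were seen. No coordinate was converted. Splice site genes came from matched junctions with A=1 or matched members, and values for annotated junctions under 50 kb (except the share with an annotated length) are of those with A=1. Expected counts, rounded, summed to 47615334 in replicate 1 and 52890677 in replicate 2, spike-ins left out. They were scaled by TMM (edgeR 4.0.16, R 4.3.3) and a prior count of 0.5 was added. A host was called at 2-fold or more with a summed count of at least 20. Spike-ins held 314310 and 258425 counts. No replicated test was possible. Intervals are 95% Clopper-Pearson (scipy 1.17.1) and cover counting error only. The genes named were hosts of the 12 longest and 12 most-read members, the 8 lowest shares, the 8 most-read unmatched members, hosts with at least 3 members (by count, those with 5 or more in full) and list examples by reads. Few of the longest members were annotated, so the 12 longest and 12 most-read annotated ones were added after the data were seen. Matching and fold calls were tested on simulated data. Alternatives changed length, reads, score, annotation, denominator, contigs and scaling. Some of the genes and sequences this rule names are not reported here.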

Additional observations from a re-analysis of the deposited data

How the results depend on the processing

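No paired analysis was possible because there is 1 group and no second group shares its replicate numbers. The number of members was 1200 at a length of at least 100 kb and 1669 with at least 20 reads. It was 3134 with the shorter length limit and 2138 at a score of at most 0.05. The 1103 annotated-length introns became 1059 with protein-coding transcripts only, stayed at 1103 without the demand on order or with 1 round of anchors, and were 1038 with A=1 only. The share of introns with at least 90% at both sites was 75.1% with junctions of a score of at most 0.1 in the denominator and 68.0% with at least 20 reads. The first-intron share was 58.7% with the rank in any transcript and 56.2% at 100 kb or more. Contig coverage was 1.76% with contigs of a score of at most 0.1 and 0.0105% on the other strand. The median host level ran from 9.56 TPM without replicate 2 to 10.9 TPM without replicate 1, and was 7.4 in FPKM, which is another unit. Hosts past 2-fold numbered 73 under spike-in scaling (9.05%, against 10.7% of all genes) and 32 by TPM (3.97%, against 6.93% of all genes), and 20 with DESeq2 size factors or no minimum count. Of the 20, 9 were among the 73. The cause of these shifts was not tested. The members of 10 to 20 reads have wide intervals on their shares.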
